A study of Mus musculus with 24 samples.

Results

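The collagen genes are the rows of the count table whose GENCODE M21 symbol is Col, a number, the letter a and a number, such as Col1a1. The rule found 44 of the 39017 gene IDs in the table, and it used no measured value. They were sorted by the kind of collagen into 11 fibrillar genes, 10 basement membrane genes and 23 genes of other types. RNA of dorsal skin was sequenced from female mice of the C3H/HeJ strain, in which grafting of skin from an affected donor induces alopecia areata (AA), a loss of hair with immune cells around the follicle. The 4 groups held 6 libraries each, named A to F. 8w off Tx mice had AA, were given the JAK1-selective inhibitor Cmpd A in their food once daily at about 100 mg/kg for 4 weeks and were sampled 8 weeks after the last dose. Systemic JAK1i samples were biopsies taken at the end of the 4 weeks of dosing. AA mice were alopecic, with titles that hold Vec12w, a mark the labels do not explain, and with no inhibitor named, and Healthy mice had no alopecia. AA, Healthy and 8w off Tx skin was taken at termination in week 12, at an age of about 30 weeks, and Systemic JAK1i skin from live mice in week 4, so that a comparison with Systemic JAK1i also holds those differences. The methods place 8w off Tx and Systemic JAK1i in the same 6 mice, but the letters do not say which libraries share a mouse, so these groups are not independent. Each library stands for 1 mouse and 1 piece of dorsal skin of many cell types, in a model where the disease was induced by grafting.

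Collagens are proteins of 3 chains wound into a triple helix. Fibrillar collagens such as types I, III and V form the ropes that give the dermis its strength. Type IV collagen is a sheet-forming collagen of basement membranes, type VII anchors the epidermal basement membrane to the dermis, and type XVII crosses the membrane of basal keratinocytes in the hemidesmosome, where it also holds hair follicle stem cells in place. Other types include the beaded filaments of type VI, short-chain networks such as type VIII, collagens that sit on fibrils and collagens that span the cell membrane.

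The libraries held 3444193 to 11233020 counts. Values are counts scaled by library size after TMM normalization (CPM), and a gene was called where the edgeR quasi-likelihood test gave a Benjamini-Hochberg adjusted p below 0.05 over the 16248 genes tested. The median log2 fold change of all tested genes lay between -0.01 and 0.01 in every comparison. Epidermal keratinocyte markers were present in every group, summing to 7402 to 15251 CPM in 8w off Tx, 9059 to 11128 CPM in Systemic JAK1i, 8364 to 15977 CPM in AA and 8261 to 17705 CPM in Healthy. Libraries A and E of 8w off Tx stood apart, with hair shaft and matrix markers summing to 226 and 96.6 CPM against 6716 to 15625 CPM in the other 4 libraries, and with the highest sums of skeletal muscle markers of that group. Healthy libraries A and E held the lowest muscle sums of all 24 libraries. Results that rest on these libraries are given with and without them.

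Collagen genes took 0.649% ± 0.0869 of all counts in 8w off Tx, 1.06% ± 0.179 in Systemic JAK1i, 0.898% ± 0.348 in AA and 0.964% ± 0.205 in Healthy (mean ± SD, n = 6 each). The fibrillar class alone took 0.224% to 0.421% in 8w off Tx, 0.449% to 0.901% in Systemic JAK1i, 0.190% to 0.929% in AA and 0.231% to 0.714% in Healthy (lowest to highest library). The 6 libraries of 8w off Tx therefore all lay below the 6 of Systemic JAK1i, while AA spanned the range of the other groups. Basement membrane genes took 0.190% to 0.242% in 8w off Tx, 0.233% to 0.276% in Systemic JAK1i, 0.169% to 0.243% in AA and 0.239% to 0.315% in Healthy, with AA and Healthy overlapping by a narrow margin.

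**Figure D1:**
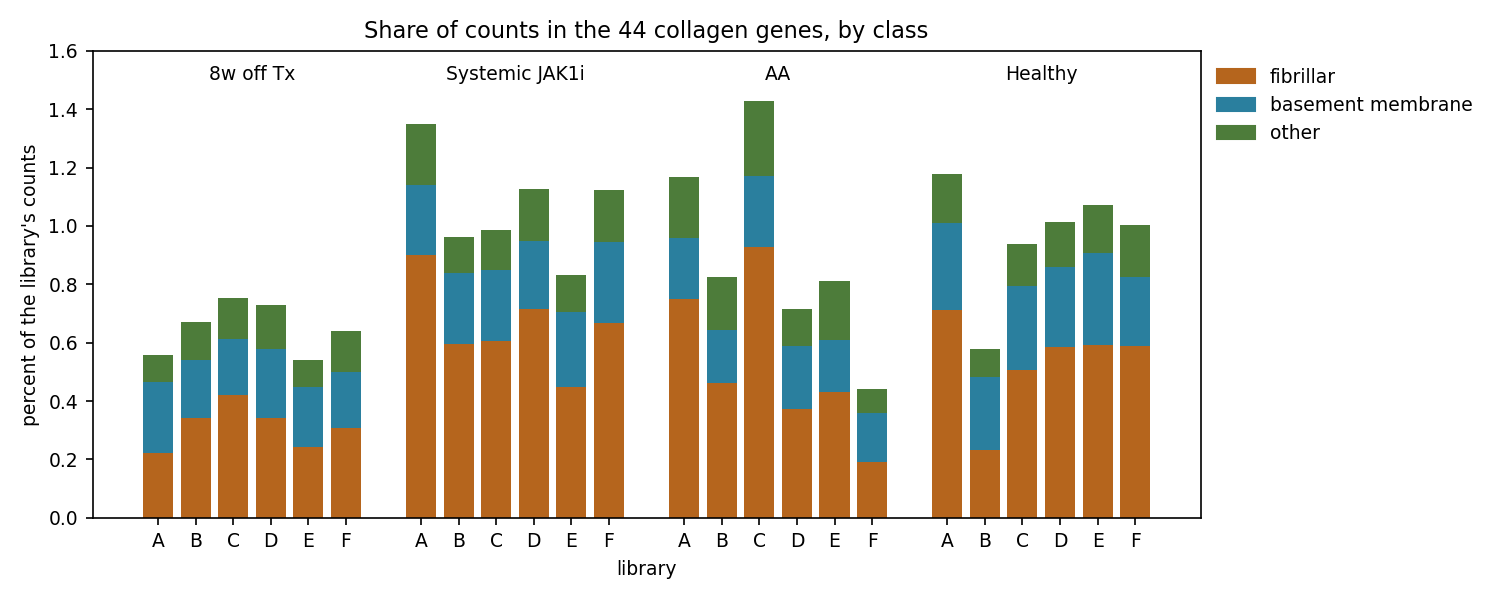
Stacked bars give the percent of each library's counts that fell in collagen genes, split into fibrillar, basement membrane and other types, for libraries A to F of each group. The fibrillar part of the 8w off Tx bars is below that of the Systemic JAK1i bars, and the AA bars differ most among themselves.

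Per kilobase of exon, the gene with the highest median level in Healthy skin was Col17a1 at 276 CPM per kb, followed by Col1a1 at 218, Col3a1 at 193 and Col1a2 at 119.9 CPM per kb. In AA the order of these changed, with Col1a1 at 184, Col3a1 at 147 and Col17a1 at 136 CPM per kb. In both groups the ranges of neighbours in this order overlapped. The next levels in Healthy skin, from Col6a1 at 56.7 to Col7a1 at 21.1 CPM per kb, belonged to the microfibril chains Col6a1, Col6a2 and Col6a3, the sheet chains Col4a1 and Col4a2, the fibril chains Col5a1 and Col5a2, the fibril-associated Col16a1 and the anchoring fibril gene Col7a1. The length used merges the exons of all annotated transcripts of a gene and can exceed that of the transcript in skin. It was 6011 bases for Col17a1, 6563 for Col1a1, 9816 for Col3a1 and 12426 for Col1a2. The order between genes depends on these lengths, and by CPM alone Col3a1 had the highest Healthy median.

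In the skin of AA mice the abundant dermal fibril genes Col1a1, Col1a2 and Col3a1 were not called. Col6a4, Col6a5, Col6a6, Col11a1 and Col11a2 were higher than in Healthy skin, and Col8a2, Col4a6 and Col17a1 were lower. In Systemic JAK1i skin, all of these but Col6a6 differed from AA in the opposite direction. Of the 44 genes, 38 passed the filter on low counts and were tested. Col6a4 passed it mainly through AA and 8w off Tx, the groups where it was high. In AA against Healthy, 8 were called higher and 6 lower, where 20.9% and 19.3% of all genes were, which makes 36.8% of those tested against 40.2% of all genes. In Systemic JAK1i against AA, 6 were called higher and 8 lower (22.9% and 24.8% of all genes), again 36.8%, against 47.7% of all genes. In Systemic JAK1i against Healthy, 1 gene, Col27a1, was called lower (0.535% of all genes), which is 2.63% against 1.05% of all genes, and 0 were called higher (0.511% of all genes) by edgeR, by DESeq2 or at an unadjusted p below 0.05. Between 8w off Tx and Healthy, 6 were called higher and 8 lower in 8w off Tx (16.9% and 15.7% of all genes), or 36.8% against 32.7%. Between 8w off Tx and AA, 1 gene, Col5a3, was called lower in 8w off Tx (0.64% of all genes), or 2.63% against 1.37%, and 0 were called higher by edgeR (0.726% of all genes), with 3 higher at an unadjusted p below 0.05 and 2 higher by DESeq2. Between 8w off Tx and Systemic JAK1i, 7 were called higher and 12 lower in 8w off Tx (19.4% and 16.6% of all genes), which is 50.0% of those tested against 35.9% of all genes. The share of collagen genes called thus lay below that of all genes in AA against Healthy and in Systemic JAK1i against AA and above it in the other comparisons, where Systemic JAK1i against Healthy and 8w off Tx against AA rested on 1 gene each, and these shares were not tested against each other. Leaving out 8w off Tx libraries A and E turned this order for 8w off Tx against Systemic JAK1i, with 6 higher and 7 lower of 38 beside 3445 higher and 2742 lower of 16680 genes, and for 8w off Tx against Healthy, with 7 higher and 4 lower of 38 beside 2827 higher and 2582 lower. Without Healthy A and E the order for 8w off Tx against Healthy also turned, with 3 higher and 5 lower of 38 beside 1968 higher and 1872 lower of 16576 genes.

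**Figure D2:**
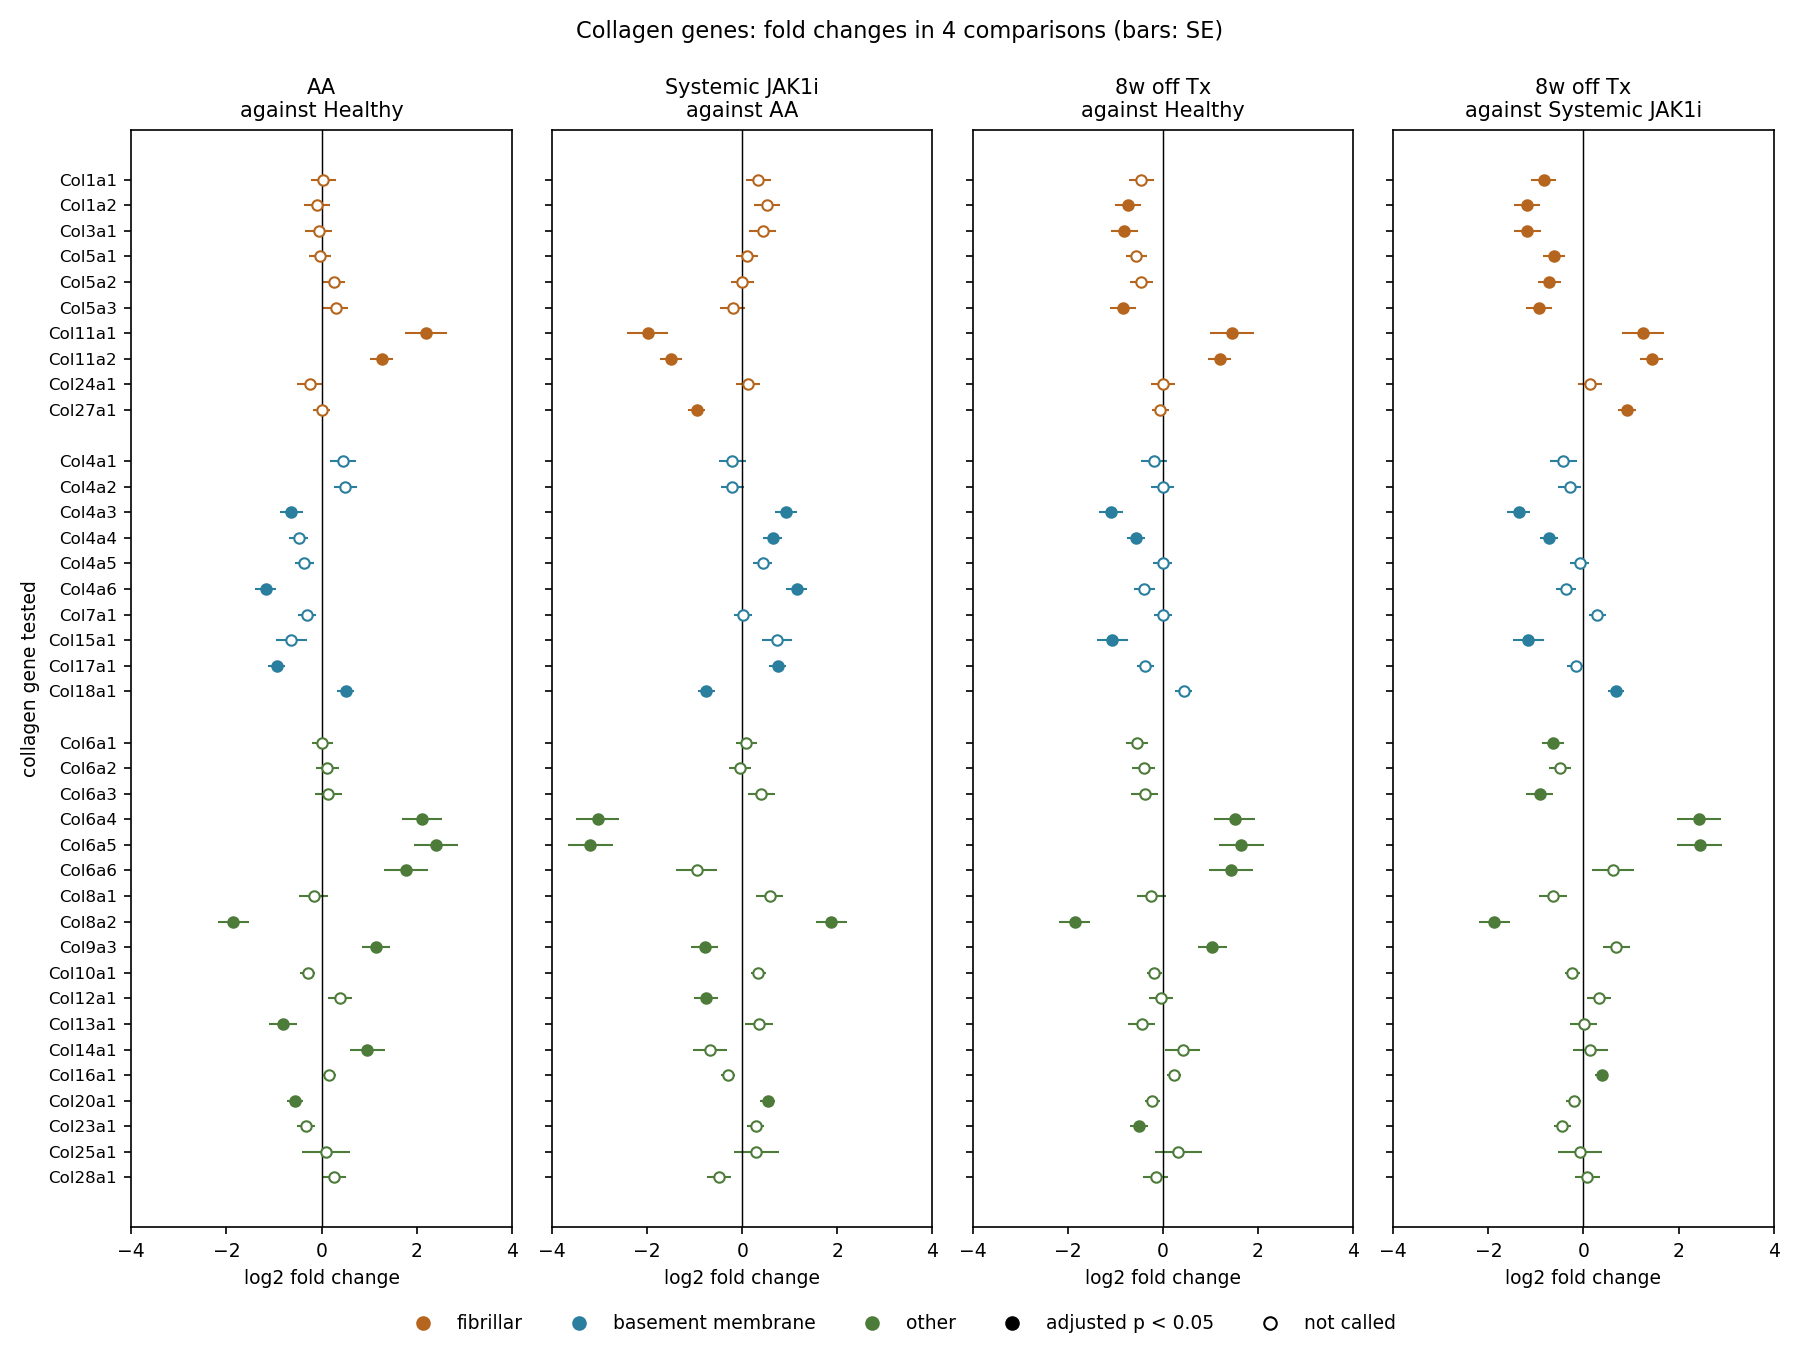
Points give the log2 fold change of each of the 38 tested collagen genes in 4 comparisons, with bars of 1 SE, by class, filled where the edgeR adjusted p was below 0.05. The points of Col6a4, Col6a5, Col11a1 and Col11a2 lie to the right in AA against Healthy and to the left in Systemic JAK1i against AA, and 6 of the fibrillar points lie to the left and are filled in 8w off Tx against Systemic JAK1i.

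Some collagen genes had groups whose libraries did not overlap at all. In AA against Healthy these were 1 higher (Col6a4) and 1 lower (Col17a1) of 38, where 8.17% and 6.13% of all genes did so. In Systemic JAK1i against AA there were 2 higher (Col8a2 and Col17a1) and 3 lower (Col6a4, Col6a5 and Col27a1), against 13.2% and 13.8% of all genes. Between 8w off Tx and Healthy there was 1 higher in 8w off Tx (Col11a2) and 1 lower (Col8a2), against 4.31% and 4.67%, and in 8w off Tx against Systemic JAK1i 3 higher (Col6a4, Col6a5 and Col11a2) and 7 lower (Col1a2, Col3a1, Col5a3, Col4a3, Col15a1, Col8a1 and Col8a2), against 8.77% and 9.19%. At the stricter limits of the study (FDR below 0.001 and a change over 4-fold), Col6a4, Col6a5 and Col11a1 passed in AA against Healthy, where 2.51% of all genes passed upward, and Col6a4 and Col6a5 passed in Systemic JAK1i against AA (lower, 2.73% of all genes) and in 8w off Tx against Systemic JAK1i (higher, 1.98%). Because Col6a4 was tested mainly through the groups where it was high, its entries in these counts are no added support.

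The scale of the values bears on the counts of higher and lower genes. The deposited TPM, tested without recentring as log2(TPM + 0.1) with limma, moved the median of all genes by -0.29 in AA against Healthy, by 0.65 in Systemic JAK1i against AA, by 0.34 in Systemic JAK1i against Healthy, by -0.80 in 8w off Tx against Healthy, by -0.51 in 8w off Tx against AA and by -1.16 in 8w off Tx against Systemic JAK1i. On that scale the collagen calls were 3 higher and 4 lower in AA against Healthy, 16 and 1 in Systemic JAK1i against AA, 0 and 23 in 8w off Tx against Healthy, and 1 and 26 in 8w off Tx against Systemic JAK1i. Of all 16248 genes, 641 were higher and 1987 lower, 8564 and 603, 329 and 11340, and 232 and 13910 in the same order. With each library centred on its median, the TPM calls were 7 higher and 5 lower, 5 and 9, 6 and 5, and 6 and 9 in the same order of comparisons. Beside these, 2564 of all genes were higher and 3046 lower, 3403 and 3204, 2110 and 2263, and 2506 and 2275. All directions below are relative to the median of all genes, as TMM scaling sets it.

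Type VI collagen forms beaded microfibrils around cells. Its classical chains Col6a1, Col6a2 and Col6a3 are made by fibroblasts, and Col6a4, Col6a5 and Col6a6 are later-described chains that resemble Col6a3. The last 3 genes stand in a row on the minus strand of chromosome 9 (GRCm38, 105687809 to 106096783), with gaps of 27917 and 28810 bases and no other annotated gene ID between them. The bases just upstream of their starts (chr9:106096784-106096941 for Col6a4, chr9:105960644-105960893 for Col6a5 and chr9:105828161-105828335 for Col6a6) are shown because these neighbours were higher together in AA. Sequence is from RefSeq on GRCm38.p6, 5′ to 3′ on the gene's strand, up to the first base that RefSeq or GENCODE M21 counts as transcribed. Capitals mark the letters TTCNNNGAA, the core of the GAS element to which STAT proteins, the factors that JAK kinases activate, can bind.
Col6a4: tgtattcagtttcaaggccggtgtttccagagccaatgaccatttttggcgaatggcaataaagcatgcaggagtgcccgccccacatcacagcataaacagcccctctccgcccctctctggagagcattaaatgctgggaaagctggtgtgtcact
Col6a5: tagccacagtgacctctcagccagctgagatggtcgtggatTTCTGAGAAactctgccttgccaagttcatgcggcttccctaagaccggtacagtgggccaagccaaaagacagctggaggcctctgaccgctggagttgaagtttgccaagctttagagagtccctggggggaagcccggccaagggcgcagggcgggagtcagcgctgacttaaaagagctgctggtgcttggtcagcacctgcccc
Col6a6: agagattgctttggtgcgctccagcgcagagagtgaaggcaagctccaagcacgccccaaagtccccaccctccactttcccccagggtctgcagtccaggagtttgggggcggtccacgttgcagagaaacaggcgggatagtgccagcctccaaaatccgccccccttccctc
The Col6a5 run holds the letters once, starting 209 bases before its RefSeq start, and the other 2 runs do not hold them. The search reads the same on both strands. In windows of 300 bases (250 before to 50 after the start), 2726 of 32851 mouse promoters (8.30%) held these letters, and 2 of the 38 promoters of 35 collagen genes did (5.26%), those of Col6a5 and Col28a1. The letters GAAANNGAAA or their reverse complement TTTCNNTTTC were in 3.44% of all promoters and in 0 of the 38. These matches describe letters and are not evidence of binding.

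Col6a5 showed the largest fold change of the collagen genes between Systemic JAK1i and AA. It stood at 25.4, 63.2 and 132 CPM in 8w off Tx, 5.89, 12.6 and 22.4 CPM in Systemic JAK1i, 49.7, 84.6 and 219 CPM in AA and 10.3, 13.2 and 53.8 CPM in Healthy (lowest, median and highest of 6 libraries, as in all such triplets below). Every AA library was above every Systemic JAK1i library, while in Healthy skin libraries B and F, at 53.8 and 28.5 CPM, were above the other 4 and library B overlapped with AA. The gene was 5.28-fold higher in AA than in Healthy (log2 fold change 2.40 ± 0.47 (SE), edgeR adjusted p = 0.000411) and lower in Systemic JAK1i than in AA (-3.19 ± 0.48 (SE), edgeR adjusted p = 2.46e-05). It was higher in 8w off Tx than in Systemic JAK1i (2.44 ± 0.48 (SE), edgeR adjusted p = 0.000512) and than in Healthy (1.65 ± 0.47 (SE), edgeR adjusted p = 0.0106). The difference from Healthy was not called without Healthy libraries A and E (log2 fold change 1.3968, edgeR adjusted p = 0.0676). Systemic JAK1i against Healthy gave -0.79 ± 0.49, which was not called (edgeR adjusted p = 0.428).

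Col6a4 was the least abundant chain of the 6 by CPM. It stood at 1.30, 2.84 and 4.25 CPM in 8w off Tx, 0.143, 0.242 and 1.23 CPM in Systemic JAK1i, 3.62, 4.24 and 5.55 CPM in AA and 0.351, 0.836 and 2.18 CPM in Healthy, on 23 counts in all 6 Systemic JAK1i libraries together and 132 in the 6 AA libraries. AA overlapped with neither Healthy nor Systemic JAK1i. The gene passed the filter through AA and 8w off Tx and 1 Healthy library, with 0 Systemic JAK1i libraries over the limit. Its log2 fold change was 2.12 ± 0.41 (SE), edgeR adjusted p = 0.000216 in AA against Healthy, and -3.04 ± 0.46 (SE), edgeR adjusted p = 6.13e-06 in Systemic JAK1i against AA. Its value for 8w off Tx against Systemic JAK1i was 2.43 ± 0.47 (SE), edgeR adjusted p = 0.000165, a difference that on uncentred TPM had the opposite sign (-0.10) but lay above the median shift of all genes given above. Libraries A and E had the lowest values in 8w off Tx, 1.30 and 1.33 CPM.

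Col6a6 was called in AA against Healthy and not in Systemic JAK1i against AA. It stood at 16.4, 19.4 and 35.1 CPM in 8w off Tx, 9.69, 13.7 and 20.9 CPM in Systemic JAK1i, 14.7, 25.8 and 45.3 CPM in AA and 0.993, 4.92 and 27.3 CPM in Healthy. Healthy library F was the exception in its group, since the other 5 Healthy libraries were at 6.92 CPM or less. The gene was higher in AA than in Healthy (1.78 ± 0.46 (SE), edgeR adjusted p = 0.00380) and in 8w off Tx than in Healthy (1.43 ± 0.46 (SE), edgeR adjusted p = 0.0212), while Systemic JAK1i against AA gave -0.96 ± 0.44 and was not called (edgeR adjusted p = 0.0756). The rise in 8w off Tx was lost when Healthy A and E were left out (0.97, edgeR adjusted p = 0.106).

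The 3 classical chains, which lie outside that row, were not called in AA against Healthy. Col6a3, whose long chain carries many globular domains, stood at 217, 274 and 411 CPM in 8w off Tx, 392, 533 and 870.2 CPM in Systemic JAK1i, 155, 443 and 731 CPM in AA and 228, 390.5 and 522 CPM in Healthy. Col6a1 stood at 117, 159.6 and 224 CPM in 8w off Tx, 187, 255 and 345 CPM in Systemic JAK1i, 103, 274 and 326 CPM in AA and 178, 249 and 292 CPM in Healthy. Col6a2 stood at 116, 172 and 192 CPM in 8w off Tx, 159, 221 and 298 CPM in Systemic JAK1i, 90.2, 265 and 321 CPM in AA and 152, 213 and 279.5 CPM in Healthy. The AA libraries spread more widely than the others, with library F lowest for all 3 chains, and the groups overlapped in every comparison of them. Their log2 fold changes in AA against Healthy were 0.017, 0.12 and 0.14 for Col6a1, Col6a2 and Col6a3 (edgeR adjusted p from 0.715 to 0.963). Col6a3 and Col6a1 were lower in 8w off Tx than in Systemic JAK1i (-0.92 ± 0.28 (SE), edgeR adjusted p = 0.0146, and -0.64 ± 0.23 (SE), edgeR adjusted p = 0.0316). Neither call held without 8w off Tx libraries A and E (edgeR adjusted p = 0.0671 and 0.143). Within a library, and so free of any scaling, the counts per kb of Col6a5 over those of Col6a3 ran from 0.126 to 0.595 in 8w off Tx, from 0.0186 to 0.0436 in Systemic JAK1i, from 0.111 to 0.612 in AA and from 0.0318 to 0.2996 in Healthy. The ratio of Col6a6 to Col6a3 ran from 0.0532 to 0.137 in 8w off Tx, 0.0159 to 0.0658 in Systemic JAK1i, 0.0526 to 0.136 in AA and 0.00341 to 0.0682 in Healthy.

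**Figure D3:**
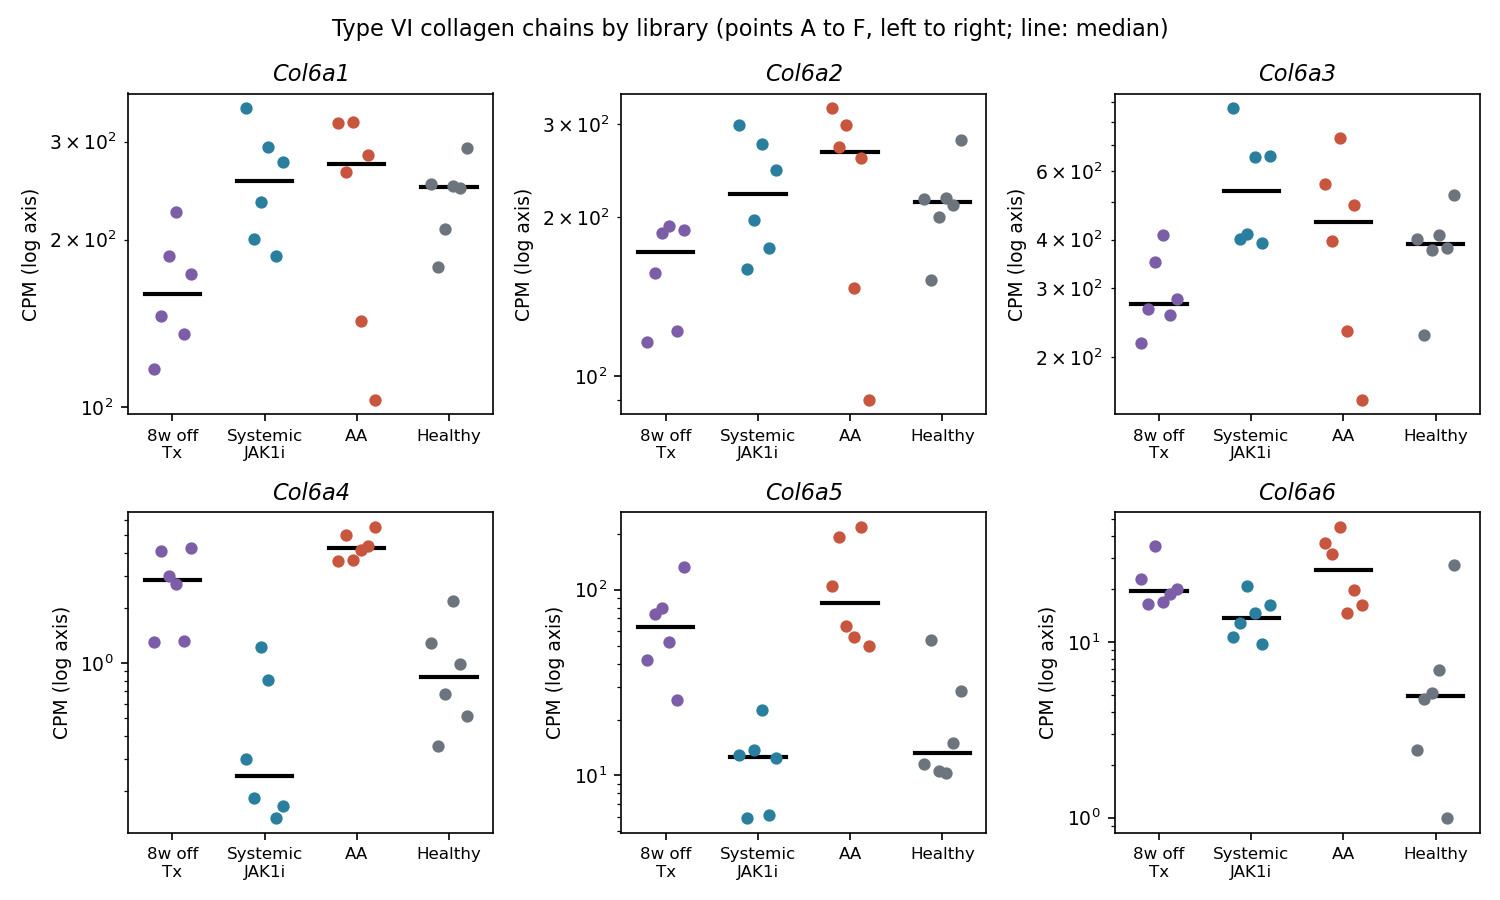
Points give the CPM of the 6 type VI collagen genes in each library on log axes, with group medians as lines. Col6a4 and Col6a5 are higher in every AA library than in every Systemic JAK1i library, and the groups overlap for Col6a1, Col6a2 and Col6a3.

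The fibrillar class split into abundant dermal chains and scarce ones. Col1a1 and Col1a2, the chains of type I collagen, and Col3a1, the chain of type III, made up 35.3% to 50.2% of all collagen counts in 8w off Tx, 49.4% to 61.1% in Systemic JAK1i, 37.2% to 58.3% in AA and 35.3% to 55.5% in Healthy. Col1a1 stood at 701, 949 and 1523 CPM in 8w off Tx, 1266, 1814 and 2234 CPM in Systemic JAK1i, 598, 1205 and 2346 CPM in AA and 750.3, 1430.3 and 1876 CPM in Healthy. Col1a2 stood at 611, 807 and 1115 CPM in 8w off Tx, 1333, 1777 and 2565 CPM in Systemic JAK1i, 521, 1109.7 and 2179.7 CPM in AA and 590.5, 1489.5 and 1916 CPM in Healthy. Col3a1 stood at 888, 1065 and 1176 CPM in 8w off Tx, 1580.0, 2339.7 and 3338 CPM in Systemic JAK1i, 599.9, 1440.1 and 3571 CPM in AA and 872, 1899 and 2378 CPM in Healthy. For Col1a2 and Col3a1 every 8w off Tx library was below every Systemic JAK1i library, and in Healthy skin library B was below the other 5 for all 3 genes.

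In AA against Healthy none of the 3 was called, with log2 fold changes of 0.039 ± 0.26, -0.089 ± 0.27 and -0.057 ± 0.28 (SE) for Col1a1, Col1a2 and Col3a1 and edgeR adjusted p between 0.828 and 0.927. Systemic JAK1i against AA gave 0.34 ± 0.26, 0.53 ± 0.27 and 0.43 ± 0.28, also not called (edgeR adjusted p from 0.114 to 0.299). Set against Systemic JAK1i, Col1a2 in 8w off Tx was 2.26-fold lower (-1.18 ± 0.27 (SE), edgeR adjusted p = 0.00196), Col3a1 2.27-fold lower (-1.18 ± 0.28 (SE), edgeR adjusted p = 0.00253) and Col1a1 1.78-fold lower (-0.83 ± 0.26 (SE), edgeR adjusted p = 0.0164). Without 8w off Tx libraries A and E the calls of Col1a2 and Col3a1 held (log2 fold changes -1.05 and -1.08, edgeR adjusted p = 0.0133 and 0.0146) and that of Col1a1 did not (-0.66, edgeR adjusted p = 0.0824). Set against Healthy, Col3a1 in 8w off Tx (-0.81 ± 0.28 (SE), edgeR adjusted p = 0.0324) and Col1a2 (-0.74 ± 0.27 (SE), edgeR adjusted p = 0.0432) were called lower. Neither was called without 8w off Tx A and E (edgeR adjusted p = 0.0996 and 0.137) or without Healthy A and E (edgeR adjusted p = 0.106 and 0.199). The ratio of Col1a1 to Col1a2 in counts per kb, not tested, had medians of 2.24 in 8w off Tx, 1.80 in Systemic JAK1i, 2.13 in AA and 1.84 in Healthy, with ranges that overlapped, those of 8w off Tx and Systemic JAK1i only just, at 2.08 to 2.59 in 8w off Tx, 1.65 to 2.09 in Systemic JAK1i, 1.83 to 2.29 in AA and 1.77 to 2.41 in Healthy. The size of this ratio rests on merged exon lengths of 6563 bases for Col1a1 and 12426 for Col1a2. It is therefore not a measure of the 2 chains in type I collagen, and only its differences between groups can be read.

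Type V collagen copolymerises with type I and limits fibril width. Col5a2 stood at 122, 165 and 193 CPM in 8w off Tx, 172, 255 and 394 CPM in Systemic JAK1i, 111, 285 and 438 CPM in AA and 138, 221 and 279.9 CPM in Healthy. The ranges overlapped in every comparison. It was lower in 8w off Tx than in Systemic JAK1i (-0.72 ± 0.24 (SE), edgeR adjusted p = 0.0224), as were Col5a1 (-0.62 ± 0.23 (SE), edgeR adjusted p = 0.0367) and Col5a3 (-0.93 ± 0.27 (SE), edgeR adjusted p = 0.00870). Without 8w off Tx A and E only Col5a3 of these 3 was called (edgeR adjusted p = 0.103, 0.164 and 0.0425 for Col5a2, Col5a1 and Col5a3). Col5a3, a chain found in fewer tissues, was also the collagen gene called in 8w off Tx against AA (-1.13 ± 0.27 (SE), edgeR adjusted p = 0.0353), and it was lower than in Healthy (-0.84 ± 0.27 (SE), edgeR adjusted p = 0.0191). The call against AA did not hold without 8w off Tx A and E (-0.99, edgeR adjusted p = 0.133). That against Healthy did not hold without them either (edgeR adjusted p = 0.0747). Leaving out 1 library at a time lost the Col5a3 call against AA in 6 of 12 fits and the Col5a1 call in 6 of 12.

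Fibroblast markers moved with these genes in part. The 8 markers (Pdgfra, Dpt, Dcn, Lum, Thy1, Fbln1, Mfap5 and Cd34) were all above 0 in every group and summed to 365 to 550.0 CPM in 8w off Tx, 1015 to 1772 CPM in Systemic JAK1i, 363 to 1138 CPM in AA and 552 to 2104 CPM in Healthy. Of the 8, 6 were called lower in 8w off Tx than in Systemic JAK1i (16.6% of all genes) and 6 lower than in Healthy (15.7% of all genes). In AA 5 of 8 were lower than in Healthy (19.3% of all genes), and in Systemic JAK1i 6 of 8 were higher than in AA (22.9% of all genes). The 4 libraries of 8w off Tx other than A and E also lay below all Systemic JAK1i libraries, at 468 to 550.0 CPM. Bulk tissue cannot tell fewer fibroblasts from less RNA per fibroblast, and the part of fibroblast content in the lower dermal collagens was not tested. In AA against Healthy, Dpt, Cd34, Dcn, Lum and Fbln1 were called lower. Pdgfra, Thy1 and Mfap5 were not called, nor were Col1a1, Col1a2 and Col3a1.

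Type XI collagen is the fibril-nucleating relative of type V, best known from cartilage. Col11a1 stood at 4.22, 18.7 and 33.0 CPM in 8w off Tx, 3.42, 7.45 and 12.1 CPM in Systemic JAK1i, 11.9, 30.5 and 48.0 CPM in AA and 1.41, 5.87 and 13.6 CPM in Healthy. Col11a2 stood at 7.08, 11.9 and 12.4 CPM in 8w off Tx, 2.39, 3.66 and 5.84 CPM in Systemic JAK1i, 4.41, 12.0 and 13.8 CPM in AA and 3.84, 4.40 and 5.45 CPM in Healthy. Both had their highest median in AA, but AA library F of Col11a1 and AA library C of Col11a2 fell within the Healthy range. Col11a1 was 4.57-fold higher in AA than in Healthy (2.19 ± 0.45 (SE), edgeR adjusted p = 0.000514) and Col11a2 2.40-fold higher (1.26 ± 0.24 (SE), edgeR adjusted p = 0.000204). Both were lower in Systemic JAK1i than in AA, with -1.99 ± 0.43 (SE), edgeR adjusted p = 0.000764 for Col11a1 and -1.50 ± 0.23 (SE), edgeR adjusted p = 2.45e-05 for Col11a2. Both were higher in 8w off Tx than in Healthy, Col11a2 with no overlap with Healthy or Systemic JAK1i (1.19 ± 0.24 (SE), edgeR adjusted p = 0.000567, against Healthy) and Col11a1 with 1.45 ± 0.45 (SE), edgeR adjusted p = 0.0167 against Healthy, a call lost without Healthy A and E (1.39, edgeR adjusted p = 0.0668) and without 8w off Tx C (edgeR adjusted p = 0.0574). Col11a1 against Systemic JAK1i gave 1.25 ± 0.44 (SE), edgeR adjusted p = 0.0294 on counts and the opposite sign on uncentred TPM (-0.31), where the median of all genes fell further. That call was lost in 5 of the 12 fits that left out 1 library (edgeR adjusted p up to 0.101).

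Markers of the growing hair and of cartilage are given beside type XI. The 12 hair shaft and matrix markers summed to 96.6 to 15625 CPM in 8w off Tx, 47.2 to 514 CPM in Systemic JAK1i, 6053 to 18399 CPM in AA and 47.1 to 743 CPM in Healthy. All 12 were called higher in AA against Healthy (20.9% of all genes) and lower in Systemic JAK1i against AA (24.8% of all genes). Libraries A and E of 8w off Tx, which held little hair shaft signal, had the lowest Col11a1, at 4.22 and 8.40 CPM, and the other 4 were between 17.9 and 33.0 CPM. Col11a2 did not split in this way, at 11.7 CPM in A and 7.08 CPM in E, with the other 4 between 7.20 and 12.4 CPM. The 7 cartilage and bone markers summed to 4.87 to 11.2 CPM in 8w off Tx, 4.41 to 7.44 CPM in Systemic JAK1i, 6.87 to 23.9 CPM in AA and 5.83 to 13.9 CPM in Healthy. Of the 3 that were tested, Acan, a cartilage proteoglycan, was called higher in AA against Healthy, and Comp, a matrix protein of cartilage and tendon, lower. Col2a1, the main cartilage collagen, was at or under 2.55 CPM in all 24 libraries. The part of hair follicle content in the type XI values was not tested.

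Col27a1 had its lowest median in Systemic JAK1i. It encodes a fibrillar chain known from cartilage and stood at 15.3, 18.8 and 26.1 CPM in 8w off Tx, 6.81, 10.3 and 15.4 CPM in Systemic JAK1i, 16.1, 20.2 and 27.8 CPM in AA and 12.1, 21.4 and 25.02 CPM in Healthy. The Systemic JAK1i and AA libraries did not overlap, and Systemic JAK1i overlapped with 8w off Tx and with Healthy. It was 1.95-fold lower in Systemic JAK1i than in AA (-0.96 ± 0.19 (SE), edgeR adjusted p = 0.000260) and lower than in Healthy (-0.96 ± 0.19 (SE), edgeR adjusted p = 0.0164), and 8w off Tx was higher than Systemic JAK1i (0.91 ± 0.19 (SE), edgeR adjusted p = 0.000705). AA against Healthy gave -0.00084 ± 0.19 and was not called (edgeR adjusted p = 0.998). The call against Healthy was lost without Healthy library A (edgeR adjusted p = 0.0513), without Healthy A and E, and with the muscle markers as a covariate, and the difference between 8w off Tx and Systemic JAK1i had the opposite sign on uncentred TPM (-0.45). Muscle markers summed to 8959 to 42571 CPM in 8w off Tx, 18723 to 23755 CPM in Systemic JAK1i, 6959 to 19056 CPM in AA and 363 to 24616 CPM in Healthy. Col24a1, a scarce fibrillar chain at 2.79 to 9.30 CPM over all groups, was not called in any comparison.

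**Figure D4:**
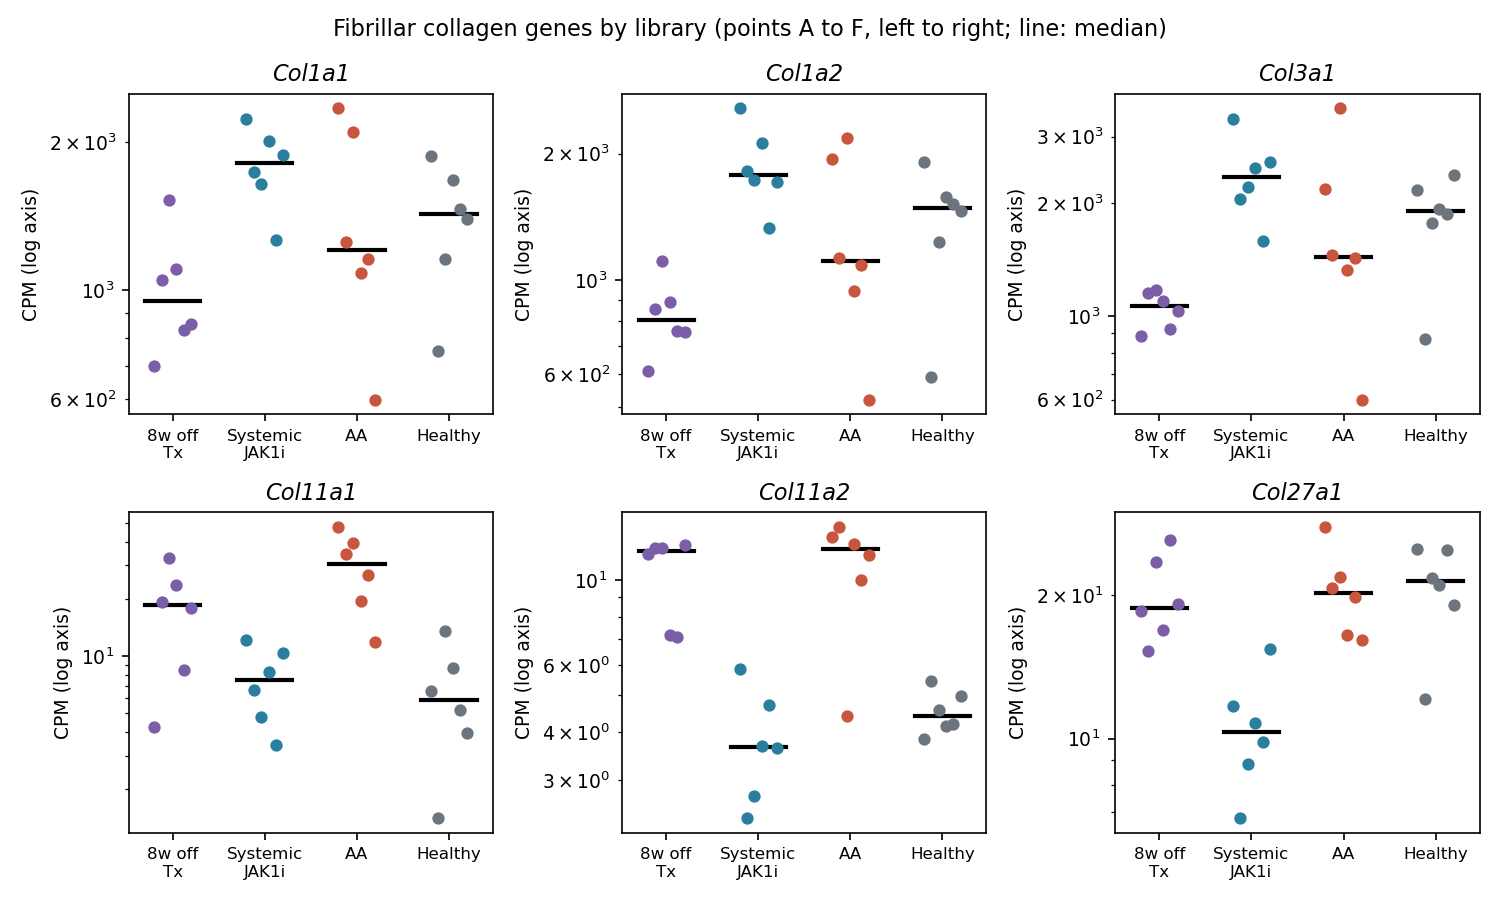
Points give the CPM of 6 fibrillar collagen genes in each library on log axes, with group medians as lines. Col1a2 and Col3a1 are lower in every 8w off Tx library than in every Systemic JAK1i library, Col11a1 and Col11a2 have their highest medians in AA or close to it, and Col27a1 has its lowest values in Systemic JAK1i.

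Among basement membrane genes, Col17a1 was the most abundant. It stood at 878, 1254 and 1839 CPM in 8w off Tx, 1236, 1447 and 1669 CPM in Systemic JAK1i, 667, 816 and 1116 CPM in AA and 1184, 1657 and 2044 CPM in Healthy. No AA library overlapped with Healthy or with Systemic JAK1i. The gene was 1.92-fold lower in AA than in Healthy (-0.94 ± 0.18 (SE), edgeR adjusted p = 0.000213) and higher in Systemic JAK1i than in AA (0.75 ± 0.18 (SE), edgeR adjusted p = 0.00143). Col17a1 in 8w off Tx was not called against any group. There the 2 libraries with little hair shaft signal, A and E, were high, at 1839 and 1614 CPM, with library D at 1503 CPM and the other 3 at 878 to 1006 CPM. Without A and E it was lower in 8w off Tx than in Healthy (-0.64, edgeR adjusted p = 0.00814). Of the 8 keratinocyte markers, 3 were called higher in AA against Healthy (the basal keratin Krt14 and the suprabasal genes Krt1 and Ivl) and 2 lower (the follicle stem cell keratin Krt15 and the desmosome gene Dsg1a), where 20.9% and 19.3% of all genes were.

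Col7a1, the anchoring fibril gene of the same zone, was not called in any comparison. It stood at 146, 200.1 and 319 CPM in 8w off Tx, 138, 175 and 217 CPM in Systemic JAK1i, 118, 164 and 274 CPM in AA and 170.1, 217 and 264 CPM in Healthy. All 4 ranges overlapped. On uncentred TPM it was called lower in 8w off Tx against Healthy and against Systemic JAK1i, with log2 fold changes of -0.89 and -0.9991, near the median shift of all genes on that scale.

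Type IV collagen is encoded by 3 pairs of genes that lie head to head, each pair starting within a few bases or a short stretch of the other. Col4a1 and Col4a2 (chromosome 8), the chains of most basement membranes, overlap by their first exons, so reads at those exons cannot be told apart unless strand was used in counting, a setting not given in the sources used here. Col4a1 stood at 136, 265 and 316 CPM in 8w off Tx, 256, 325 and 380.0 CPM in Systemic JAK1i, 165, 383 and 580.0 CPM in AA and 119, 264 and 429.7 CPM in Healthy. Col4a2 stood at 96.9, 169.8 and 218 CPM in 8w off Tx, 158, 191 and 225 CPM in Systemic JAK1i, 110.0, 225 and 337 CPM in AA and 83.3, 164 and 230.0 CPM in Healthy. Neither was called in any comparison. Their log2 fold changes in AA against Healthy were 0.45 ± 0.28 and 0.50 ± 0.24 (SE; edgeR adjusted p = 0.209 and 0.101). The 9 endothelial markers, cells that rest on such a basement membrane, were all called lower in AA against Healthy (19.3% of all genes) and higher in Systemic JAK1i against AA (22.9% of all genes), with sums of 112 to 166 CPM in 8w off Tx, 253 to 310.3 CPM in Systemic JAK1i, 63.7 to 162 CPM in AA and 194 to 383 CPM in Healthy.

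Col4a6, the partner of Col4a5 on chromosome X, was lower in AA. It stood at 33.8, 41.2 and 50.9 CPM in 8w off Tx, 42.8, 53.0 and 62.0 CPM in Systemic JAK1i, 13.4, 17.8 and 47.5 CPM in AA and 35.8, 57.9 and 61.8 CPM in Healthy. AA library D, at 47.5 CPM, was the one that reached the range of the other groups. The gene was 2.25-fold lower in AA than in Healthy (-1.17 ± 0.22 (SE), edgeR adjusted p = 0.000287) and higher in Systemic JAK1i than in AA (1.15 ± 0.22 (SE), edgeR adjusted p = 0.000255), and 8w off Tx was not called against any group. Col4a5, 1308 bases away on the other strand, gave -0.36 ± 0.20 and 0.43 ± 0.20 in the same comparisons and was not called (edgeR adjusted p = 0.165 and 0.0796). Within a library, Col4a6 over Col4a5 in counts per kb was 0.511 to 0.849 in 8w off Tx, 0.722 to 0.901 in Systemic JAK1i, 0.418 to 0.576 in AA and 0.785 to 0.9999 in Healthy, so that the AA libraries were below all Systemic JAK1i and Healthy libraries in this ratio.

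The third pair, Col4a3 and Col4a4 on chromosome 1, was scarce in skin and is best known from the kidney filter. Col4a3 stood at 2.27, 3.01 and 4.47 CPM in 8w off Tx, 6.78, 8.57 and 9.58 CPM in Systemic JAK1i, 2.30, 4.15 and 8.08 CPM in AA and 3.16, 7.65 and 8.16 CPM in Healthy. No 8w off Tx library overlapped with Systemic JAK1i. On counts it was lower in AA than in Healthy (-0.64 ± 0.24 (SE), edgeR adjusted p = 0.0383), higher in Systemic JAK1i than in AA (0.92 ± 0.24 (SE), edgeR adjusted p = 0.00282) and lower in 8w off Tx than in Systemic JAK1i (-1.37 ± 0.25 (SE), edgeR adjusted p = 0.000172), and all 3 of these had the opposite sign on centred TPM (0.16, -0.23 and 0.068). The fall in 8w off Tx against Healthy (-1.08 ± 0.25 (SE), edgeR adjusted p = 0.00199) came to nearly 0 there. The call in AA against Healthy was lost in 9 of the 12 fits that left out 1 library. Col4a4, 71 bases away, ranged from 3.98 to 13.5 CPM over the 24 libraries. It was higher in Systemic JAK1i than in AA (0.64 ± 0.19 (SE), edgeR adjusted p = 0.00872) and lower in 8w off Tx than in Systemic JAK1i (-0.73 ± 0.19 (SE), edgeR adjusted p = 0.00542) and in Healthy (-0.56 ± 0.20 (SE), edgeR adjusted p = 0.0320), with -0.48 ± 0.20 in AA against Healthy, not called (edgeR adjusted p = 0.0547). Its call in 8w off Tx against Healthy was lost in 6 of 12 such fits (edgeR adjusted p up to 0.0782).

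Types XV and XVIII are basement membrane collagens that carry sugar chains and are cut to release endostatin-like fragments, and they moved in opposite directions in 8w off Tx against Systemic JAK1i. Col18a1 stood at 121, 150.4 and 245 CPM in 8w off Tx, 82.2, 104 and 122 CPM in Systemic JAK1i, 116, 167 and 236 CPM in AA and 89.4, 124 and 145 CPM in Healthy. It was higher in AA than in Healthy (0.51 ± 0.18 (SE), edgeR adjusted p = 0.0238), lower in Systemic JAK1i than in AA (-0.75 ± 0.18 (SE), edgeR adjusted p = 0.00126) and higher in 8w off Tx than in Systemic JAK1i (0.68 ± 0.18 (SE), edgeR adjusted p = 0.00392), while on uncentred TPM the last 2 had the opposite sign (0.028 and -0.63). The call of Col18a1 in AA against Healthy was lost in 4 of the 12 fits that left out 1 library (edgeR adjusted p up to 0.0757). Col15a1, a gene of the vessel and muscle basement membrane, stood at 36.0, 53.9 and 87.9 CPM in 8w off Tx, 99.1, 130.0 and 156 CPM in Systemic JAK1i, 29.6, 67.8 and 155 CPM in AA and 37.8, 129 and 175 CPM in Healthy. Every 8w off Tx library was below every Systemic JAK1i library. Its log2 fold change was -1.16 ± 0.32 (SE), edgeR adjusted p = 0.00733 in 8w off Tx against Systemic JAK1i, and -1.06 ± 0.32 (SE), edgeR adjusted p = 0.0151 against Healthy, where the call was lost without 8w off Tx A and E (-0.95, edgeR adjusted p = 0.0536).

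**Figure D5:**
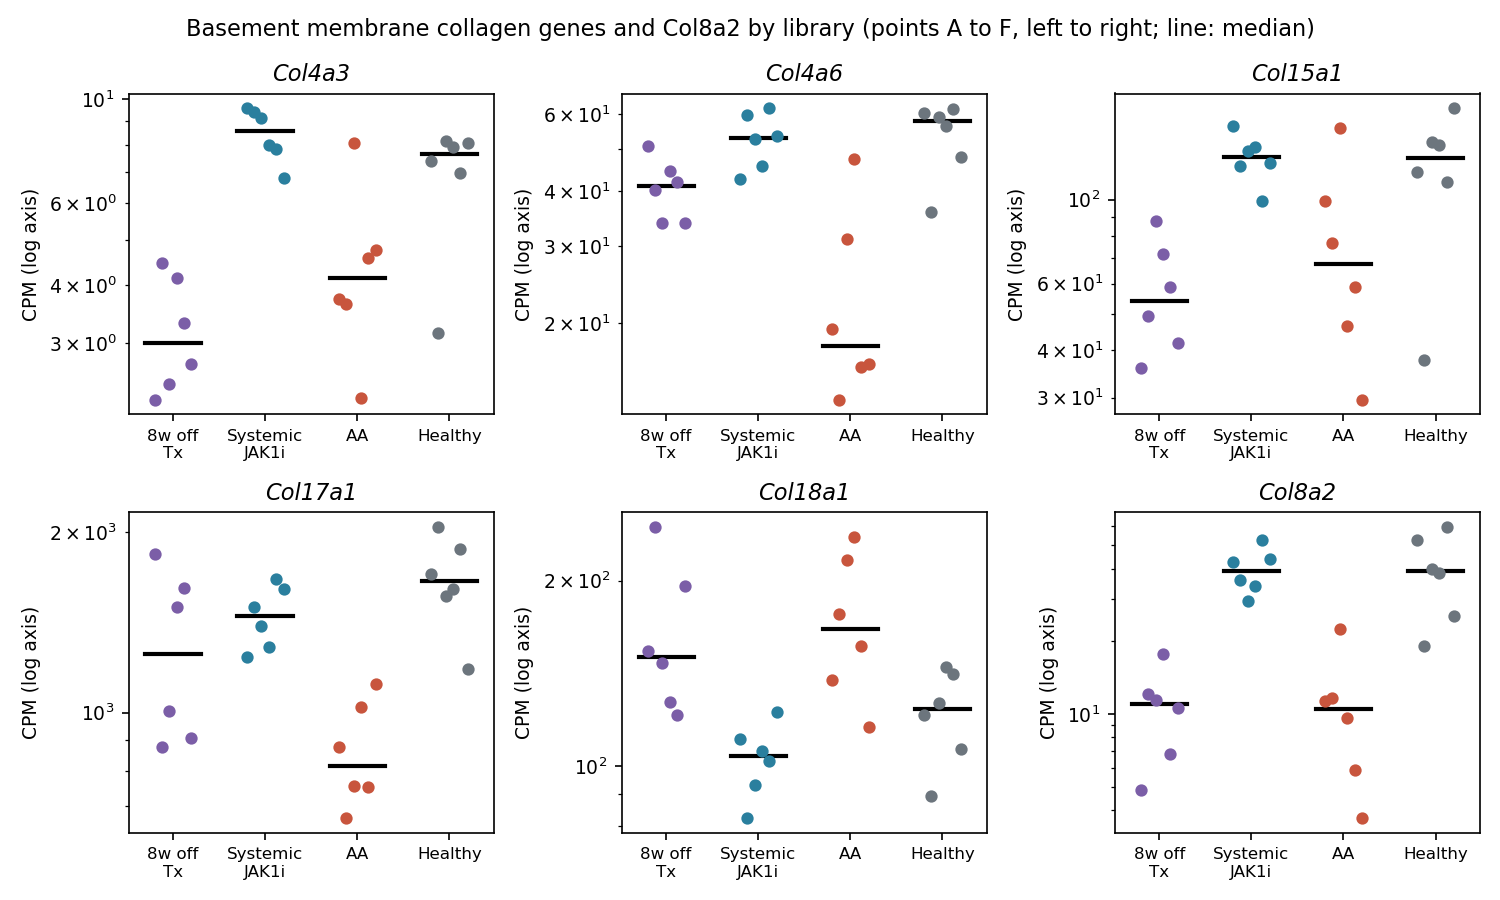
Points give the CPM of 5 basement membrane collagen genes and of Col8a2 in each library on log axes, with group medians as lines. Col17a1 is lower in every AA library than in every Healthy or Systemic JAK1i library, and Col8a2 is lower in every 8w off Tx library than in every Healthy or Systemic JAK1i library.

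Of the remaining types, Col8a2 had the largest called fall in AA against Healthy. Type VIII is a short-chain collagen that forms hexagonal networks, in Descemet's membrane of the cornea and around vessels. Col8a2 stood at 4.87, 11.0 and 17.6 CPM in 8w off Tx, 29.3, 39.3 and 52.7 CPM in Systemic JAK1i, 3.70, 10.5 and 22.5 CPM in AA and 19.1, 39.1 and 59.8 CPM in Healthy. Systemic JAK1i lay above AA and 8w off Tx with no overlap, and 8w off Tx lay below Healthy with none, whereas AA library C, at 22.5 CPM, was above Healthy library B, at 19.1 CPM. It was 3.61-fold lower in AA than in Healthy (-1.85 ± 0.33 (SE), edgeR adjusted p = 0.000123) and 3.67-fold higher in Systemic JAK1i than in AA (1.87 ± 0.32 (SE), edgeR adjusted p = 7.77e-05). It was lower in 8w off Tx than in Healthy (-1.85 ± 0.33 (SE), edgeR adjusted p = 0.000201) and than in Systemic JAK1i (-1.88 ± 0.32 (SE), edgeR adjusted p = 0.000138), and against AA it gave -0.0013 ± 0.35 (edgeR adjusted p = 0.999). All of these calls held without 8w off Tx A and E and without Healthy A and E. Col8a1, its partner chain, was at 2.99 to 14.6 CPM in Healthy and 3.97 to 12.7 CPM in AA and was not called in any comparison, though all 6 of its 8w off Tx libraries were below those of Systemic JAK1i (-0.65 ± 0.29, edgeR adjusted p = 0.0888).

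Col9a3, a chain of the cartilage collagen type IX that sits on fibrils, stood at 2.88, 5.59 and 8.76 CPM in 8w off Tx, 2.21, 3.14 and 4.96 CPM in Systemic JAK1i, 3.25, 6.37 and 8.46 CPM in AA and 1.98, 2.38 and 4.12 CPM in Healthy. The ranges of AA and Healthy overlapped. It was higher in AA than in Healthy (1.14 ± 0.30 (SE), edgeR adjusted p = 0.00372) and in 8w off Tx than in Healthy (1.04 ± 0.30 (SE), edgeR adjusted p = 0.00949), and lower in Systemic JAK1i than in AA (-0.78 ± 0.28 (SE), edgeR adjusted p = 0.0251), where uncentred TPM had the opposite sign (0.26) and the call was lost in 4 of the 12 fits that left out 1 library (edgeR adjusted p up to 0.0658). Its partner chains Col9a1 and Col9a2 were too scarce to test. Col12a1, which binds to type I fibrils, stood at 119, 196 and 268 CPM in 8w off Tx, 144, 153 and 177 CPM in Systemic JAK1i, 117, 235 and 406 CPM in AA and 103, 211 and 280.0 CPM in Healthy. It was lower in Systemic JAK1i than in AA (-0.76 ± 0.26 (SE), edgeR adjusted p = 0.0189), a call lost without AA library C or without AA library E (edgeR adjusted p up to 0.0617), and it was not called elsewhere.

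The other members of this class had smaller or less stable differences. Col14a1, another fibril-associated collagen, was higher in AA than in Healthy (0.96 ± 0.36 (SE), edgeR adjusted p = 0.0402), but Healthy library F, at 169 CPM, lay within the AA range of 49.7 to 193 CPM, and the call was lost in 8 of the 12 fits that left out 1 library. Col20a1 was lower in AA than in Healthy (-0.56 ± 0.16 (SE), edgeR adjusted p = 0.00779) and higher in Systemic JAK1i than in AA (0.54 ± 0.16 (SE), edgeR adjusted p = 0.00759), and it shares exon bases on the same strand with another annotated gene, so its counts are uncertain. Col13a1, a membrane-spanning collagen, was lower in AA than in Healthy (-0.80 ± 0.29 (SE), edgeR adjusted p = 0.0289), a call lost in 3 of 12 such fits. Col23a1, also membrane-spanning, was lower in 8w off Tx than in Healthy (-0.50 ± 0.19 (SE), edgeR adjusted p = 0.0453), a call lost in 9 of 12 such fits. Col16a1 was higher in 8w off Tx than in Systemic JAK1i (0.38 ± 0.14 (SE), edgeR adjusted p = 0.0368), lost in 7 of 12. Col10a1, which overlaps Nt5dc1 on the other strand, Col25a1 and Col28a1 were not called in any comparison.

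The 6 genes not tested were Col2a1, Col9a1, Col9a2, Col19a1, Col22a1 and Col26a1. Their summed counts over the 6 libraries of a group ran from 5 for Col9a1 in AA and Col26a1 in Systemic JAK1i and in Healthy to 59 for Col22a1 in Systemic JAK1i. Col22a1, a collagen of the junction of muscle and tendon, had 21 counts in 8w off Tx, 59 in Systemic JAK1i, 18 in AA and 18 in Healthy. Col9a1 had 35 counts in 8w off Tx, with one library, C, at 5.61 CPM and a group median of 0.0965 CPM. At this depth differences between groups in these genes were not assessed.

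Genes that make, cross-link and break down collagen are given by lists drawn up by function, with earlier results of these data known. Of the 11 tested genes for cross-linking and fibril assembly, 1 was called higher (Loxl3) and 5 lower (Fmod, Dcn, Lum, Loxl1 and Tnxb) in AA against Healthy (20.9% and 19.3% of all genes). The small proteoglycans that coat fibrils led these: Fmod, fibromodulin, gave -2.98 ± 0.38 (SE), edgeR adjusted p = 3.45e-06, and Dcn, decorin, -1.38 ± 0.27 (SE), edgeR adjusted p = 0.000374. Tnxb, tenascin X, which links fibrils, gave -1.27 ± 0.15 (SE), edgeR adjusted p = 1.83e-06. Of the 11, 4 were higher and 2 lower in Systemic JAK1i than in AA (22.9% and 24.8% of all genes), with Fmod at 2.31 ± 0.39 (SE), edgeR adjusted p = 3.77e-05. Of the same 11, 1 was higher (Fn1) and 8 lower in 8w off Tx than in Systemic JAK1i (19.4% and 16.6% of all genes), and 1 higher and 7 lower than in Healthy (16.9% and 15.7%), with list medians of -0.93 and -0.86. The fibroblast markers given above moved the same way, and Dcn and Lum are in both lists.

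Of 18 tested genes for chain modification 2 were called higher and 6 lower in AA against Healthy (20.9% and 19.3% of all genes), with a list median of -0.14. P4hb, the shared subunit of prolyl hydroxylase, was higher (0.46 ± 0.11 (SE), edgeR adjusted p = 0.00121), and Colgalt2, which adds galactose to collagen, was lower (-1.24 ± 0.24 (SE), edgeR adjusted p = 0.000208), as were P3h3 (-0.95 ± 0.21 (SE), edgeR adjusted p = 0.000999) and P3h2 (-0.91 ± 0.19 (SE), edgeR adjusted p = 0.000596), both prolyl 3-hydroxylases. Serpinh1, the collagen chaperone HSP47, was not called (-0.20 ± 0.24, edgeR adjusted p = 0.542). Of the 18, 4 were higher and 3 lower in Systemic JAK1i than in AA (22.9% and 24.8% of all genes). In 8w off Tx 2 were higher and 4 lower than in Systemic JAK1i (19.4% and 16.6% of all genes).

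Of 12 tested genes for secretion and propeptide removal, 3 were called lower in AA against Healthy, where 19.3% of all genes were, with a list median of -0.35. In Systemic JAK1i 7 of the 12 were higher than in AA (22.9% of all genes), and in 8w off Tx 7 were lower than in Systemic JAK1i (16.6% of all genes). Pcolce2, an enhancer of the protease that trims procollagen, was lower in AA than in Healthy (-1.97 ± 0.28 (SE), edgeR adjusted p = 1.39e-05) and higher in Systemic JAK1i than in AA (1.95 ± 0.28 (SE), edgeR adjusted p = 1.07e-05). Sec24d, a coat protein for procollagen export, gave -0.31 ± 0.10 (SE), edgeR adjusted p = 0.0205 in AA against Healthy, and Adamts14, which removes the amino propeptide, -0.66 ± 0.23 (SE), edgeR adjusted p = 0.0280. Mia3 and Mia2, the receptors that load procollagen for export, were not called in that comparison (-0.044 and -0.092, edgeR adjusted p = 0.557 and 0.245).

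Among 12 tested genes of collagen breakdown, 3 were higher (Timp1, Mmp13 and Mmp3) and 2 lower in AA against Healthy, a share near the 40.2% of all genes called. Timp1, an inhibitor of matrix proteases, was 12.5-fold higher (3.64 ± 0.71 (SE), edgeR adjusted p = 0.000215) and Mmp13, a collagenase, 11.3-fold higher (3.50 ± 0.68 (SE), edgeR adjusted p = 0.000272). Both were lower in Systemic JAK1i than in AA (-4.19 ± 0.73 (SE), edgeR adjusted p = 4.67e-05 for Timp1, and -6.18 ± 1.06 (SE), edgeR adjusted p = 5.79e-06 for Mmp13). The other inhibitors Timp4 (-1.96 ± 0.38 (SE), edgeR adjusted p = 0.000219) and Timp2 (-0.9967 ± 0.21 (SE), edgeR adjusted p = 0.000844) were lower in AA, and Timp3 was not called (-0.48 ± 0.20, edgeR adjusted p = 0.0592). Set against Systemic JAK1i, 2 were higher (Timp1 and Mmp13) and 8 lower in 8w off Tx (19.4% and 16.6% of all genes), with a list median of -0.66. Of 8 tested collagen receptors, 1 was higher in AA against Healthy (20.9% of all genes). This was Lair1, an inhibitory receptor of immune cells that binds collagen (2.39 ± 0.62 (SE), edgeR adjusted p = 0.00318), and it was lower in Systemic JAK1i than in AA (-2.10 ± 0.58 (SE), edgeR adjusted p = 0.00470). The integrin subunits Itgb1, Itga2 and Itga11 and the kinase Ddr1 were not called in AA against Healthy (edgeR adjusted p from 0.0774 to 0.837).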

How the data were processed

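Skin RNA of low integrity was sequenced in 24 libraries after ribosomal RNA depletion, as the study's methods state. Per the labels and methods the authors aligned reads to mm10 with HISAT2 2.0.1 and counted them per gene with featureCounts 1.4.4. The deposited counts are whole reads per gene ID, not normalized. The authors also deposited TPM, scaled per transcript length and to the same total in each library, made by a tool not given in the sources used here, as are the annotation release, strand setting and treatment of multimapping reads. The deposited table held 6 columns that match no sample, and they were not used.

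Gene IDs were named by GENCODE M21, whose union exon lengths gave levels per kb. Genes passing filterByExpr were scaled by TMM and fitted over all 24 libraries, with group as the only term, by the edgeR 4.0.16 quasi-likelihood test (R 4.3.3), with Benjamini-Hochberg adjustment over 16248 genes and a threshold of 0.05. Letters A to F were not used as pairs. Libraries were taken as separate mice within a group. TPM was tested as log2(TPM + 0.1) with limma 3.58.1. Scripts were tested on simulated data. Alternatives were RLE and upper-quartile scaling, no filter on low counts, fits of only the groups compared, DESeq2 1.42.0, limma-voom, a muscle covariate, a block on the letters, TPM settings, leaving out A and E of 8w off Tx or of Healthy, and leaving out each library in turn.

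Values by library are given for the 4 genes of each class with the highest mean CPM and the 4 with the smallest adjusted p. Other collagen genes were named after their values were seen. The members and lists were chosen with earlier results of these data known.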

Additional observations from a re-analysis of the deposited data

Results flagged for a closer look

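Of 104 sets of 6 library values examined, which did not cover every collagen gene, 1 held a library far from the others. Col4a3 in Healthy skin was at 3.16 CPM in library B, against 6.95 to 8.16 CPM in the other 5. Chance gives such a gap in about 1 of 20 sets. Outside these sets, Healthy library F also stood far above the other 5 for Col6a6 (27.3 CPM against 6.92 CPM or less) and Col14a1 (169 CPM against 44.9 CPM or less).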

How the results depend on the processing

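The 22 genes given by library had 46 called and 86 uncalled results. Of the recomputed values of the called ones, 628 outside the fits without 1 library kept direction and call, 85 lost the call and 21 turned round, and in the fits without 1 library 503 kept the call and 49 lost it. Of the uncalled ones 6 turned round, all of Col7a1. Losses of other genes stand in the report. With log2(TPM + 0.1), log2(TPM + 1) and log2(TPM + 0.1) without a filter, all uncentred, the values that turned round were -0.31, -0.063 and -0.31 for Col11a1 in 8w off Tx against Systemic JAK1i, -0.45, -0.26 and -0.45 for Col27a1, -0.63, -0.58 and -0.63 for Col18a1, -0.10, -0.014 and -0.10 for Col6a4 and, uncalled on counts, -0.9991, -0.92 and -0.9991 for Col7a1 in the same comparison, 0.028, 0.015 and 0.028 for Col18a1 and 0.26, 0.14 and 0.26 for Col9a3 in Systemic JAK1i against AA, and -0.89, -0.82 and -0.89 for Col7a1, likewise uncalled on counts, in 8w off Tx against Healthy. Such a scale moves all genes, by the medians given in the report. On centred TPM, Col4a3 gave 0.16 in AA against Healthy, -0.23 in Systemic JAK1i against AA and 0.068 in 8w off Tx against Systemic JAK1i. The cause was not tested.

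The number of collagen genes called moved as follows. In AA against Healthy it was 7 with log2(TPM + 0.1) and 6 with that scale and no filter, and 11 to 15 without 1 library. All genes gave 641 higher and 1987 lower of 16248, and 677 higher and 1782 lower of 31833, in the same TPM settings. Leaving out Healthy library B turned the balance of collagen calls to 6 higher and 8 lower, beside 3692 higher and 3418 lower of 16366 genes. In Systemic JAK1i against AA it was 13 to 18 without 1 library. Leaving out AA library C turned the balance of collagen calls to 11 higher and 7 lower, beside 3773 higher and 4001 lower of 16417 genes. In Systemic JAK1i against Healthy it was 2 with limma-voom (quality weights), 0 on all uncentred TPM settings, with the muscle covariate and without Healthy A and E, and 0 to 3 without 1 library. Beside the 2 with limma-voom, 1136 of 16248 genes were called higher and 842 lower. In 8w off Tx against Healthy it was 23, 23 and 24 on the 3 uncentred TPM settings, 8 without Healthy A and E and 10 to 15 without 1 library. With log2(TPM + 0.1) all genes gave 329 higher and 11340 lower of 16248, and without a filter 374 higher and 12219 lower of 31833. In 8w off Tx against AA it was 3 with DESeq2, 2 with limma-voom, 0 in a fit of only these groups, with no filter on TPM, on centred TPM and without 8w off Tx A and E, and 0 to 2 without 1 library. Of 16248 genes, DESeq2 called 368 higher and 260 lower there, and limma-voom 115 higher and 168 lower. In 8w off Tx against Systemic JAK1i it was 29 on uncentred TPM without a filter, 23 in a fit of only these groups, 13 without 8w off Tx A and E and 16 to 19 without 1 library. Beside the 29 of 44 stood 256 higher and 18341 lower of 31833 genes. Beside the 23 of 36 stood 3066 higher and 2804 lower of 15325 genes.

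Same-letter deviations from the group means, over all genes, correlated above 0.1 in at most 2 of 6 letters in each comparison. In 8w off Tx against Systemic JAK1i the highest same-letter value was 0.38 and the median -0.073. This cannot decide whether letters mark a shared mouse, since differences in tissue content between pieces of skin also enter these values. With a block on the letters (pairing) the calls were 8 higher and 5 lower in AA against Healthy, 7 and 8 in Systemic JAK1i against AA, 0 and 1 in Systemic JAK1i against Healthy, 6 and 6 in 8w off Tx against Healthy, 0 and 0 in 8w off Tx against AA and 7 and 11 in 8w off Tx against Systemic JAK1i. Of all 16248 genes, 3251 were higher and 3005 lower, 3571 and 3858, 52 and 52, 2565 and 2386, 76 and 72, and 2952 and 2555 in the same order. For genes at a few CPM, such as Col6a4, depth limits the values to 23 to 132 counts per group of 6 libraries.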

Other observations

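Other cell types of the skin differed between AA and Healthy as well. Of the markers tested, 8 of 9 adipocyte genes and 4 of 8 smooth muscle and pericyte genes were called lower in AA, and 4 of 8 T cell genes (Cd2, Lck, Cd8a and Cd8b1) and 4 of 8 macrophage genes (C1qa, C1qb, C1qc and Cd68) were called higher by edgeR. Of 8 dermal papilla genes 2 were higher and 3 lower. In the same comparison 20.9% of all genes were called higher and 19.3% lower.

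The count table and the TPM table disagree for some collagen genes. Collagen genes together took a mean of 0.0377% of TPM in 8w off Tx, 0.122% in Systemic JAK1i, 0.0736% in AA and 0.0871% in Healthy. These are far below their shares of counts given in the report. Col26a1 had 13 counts in the 6 libraries of 8w off Tx, 5 in Systemic JAK1i, 29 in AA and 5 in Healthy, yet its median TPM was 20.8, 43.9, 37.4 and 35.2 in the same groups. Col4a3, at a median of 7.65 CPM in Healthy skin, had a median of 7.70 TPM, while Col4a4, at 8.19 CPM, had 0.721 TPM. Levels between genes were therefore given from counts and exon length.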
